A study of Mus musculus with 4 samples.

Results

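The collagen genes of fetal mouse lung were followed across cell classes at embryonic day E17.5 and in sorted mesenchymal cells at E16.5. The members were all rows whose gene symbol reads Col, digits, a, digits, which were 43 of the 20674 genes listed in the 4 expression tables. The rule uses gene symbols and no measured value, but it was set with earlier results of these data known. Of the 43, the sorted library listed 42 and the 3 lungs listed 43, 40 and 43. By chain type there were 11 fibrillar genes, 6 basement membrane (type IV) genes, 6 type VI genes, 9 FACIT genes, 4 transmembrane genes, 2 multiplexins, 2 short chain network genes, 1 anchoring fibril gene and 2 others.

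Collagen chains wind around each other into a triple helix inside the endoplasmic reticulum, after prolyl and lysyl hydroxylases have modified them, and are trimmed and cross-linked outside the cell. Fibrillar collagens build the tensile fibres of airway and vessel walls, type IV collagen forms the sheet of every basement membrane, type VI forms beaded filaments around cells, and FACITs (fibril-associated collagens with interrupted triple helices) decorate fibril surfaces. Transmembrane collagens span the plasma membrane of the cell that makes them, and multiplexins sit in the zone around basement membranes. In the lung before birth, the thin barrier between air space and capillary rests on a type IV collagen sheet made by several cell types together.

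The E16.5 sample was 1 library of cells sorted from 1 lung of an αSMA-GFP; Tbx4-Cre; Rosa26-tdTomato embryo, positive for the GFP reporter of the smooth muscle actin gene and for the tdTomato label that Cre leaves in cells with a history of Tbx4, a lung mesenchyme transcription factor. The E17.5 samples were live cells of 3 lungs labelled WT (wild type). The labels give the strain C57BL/6 and lysis of red blood cells for all 4 samples. The protocol names lysis plates, but the barcodes and the processing tool belong to droplet libraries. Whether the lungs share a litter is not stated, so p-values cover only the spread between these 3 samples. Stage, sort, reporter alleles and library differ together between E16.5 and E17.5 and cannot be told apart. In the sort, 98.3% of 3061 cells held a UMI of Acta2 (smooth muscle actin), but so did 92.1% of its 38 epithelial cells. Acta2 averaged 5473 CPM in the contractile class, 994 CPM in pericyte-like cells and 159 CPM in that epithelium.

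The tables held 3085 sorted cells and 2682, 2140 and 2657 lung cells, with a median of 12007 UMIs per cell (unique molecular identifiers, 1 per captured RNA) in the sort and between 7201 and 8493.5 in the lungs. Between 23 and 36 cells per library were called doublets and left out, and any pair of libraries shared 7 to 13 cell barcodes. Cells were clustered without the collagen genes, and clusters were named from markers that include no collagen. Levels are means over the cells of a class of UMIs per 1000000 UMIs of a cell (CPM), given as mean ± SD over the 3 lungs (n = 3), and levels of a gene are compared between classes, not with those of other genes. Each E17.5 class was tested against the average of the log2 levels of the other classes of its set, with limma on log2(CPM + 10), lung as a block and Benjamini-Hochberg adjustment over all genes tested. The words higher and lower mark an adjusted p under 0.05.

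Of the 43 genes, 36 reached a mean of 10 CPM in at least 1 class other than mesothelium-like cells, and the other 7 (Col5a3, Col11a2, Col6a5, Col6a6, Col19a1, Col20a1 and Col28a1) reached at most 9.87 CPM in those classes. The summed level of all collagen genes was 6763 ± 598 CPM in mesenchyme, 1732 ± 42.3 CPM in endothelium, 774 ± 29.3 CPM in epithelium and 163 ± 6.11 CPM in immune cells. Within mesenchyme it ranged from 3829 ± 176 CPM in pericyte-like cells, which wrap capillaries, to 12464 ± 1249.9 CPM in a small class led by Agtr2, Penk and Dpep1. Alveolar type 1-like cells, the flat cells of gas exchange, reached 1120.2 ± 98.4 CPM and airway-like cells 443 ± 72 CPM. The map of collagen levels by class shows which chains made up these sums.

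**Figure D1:**
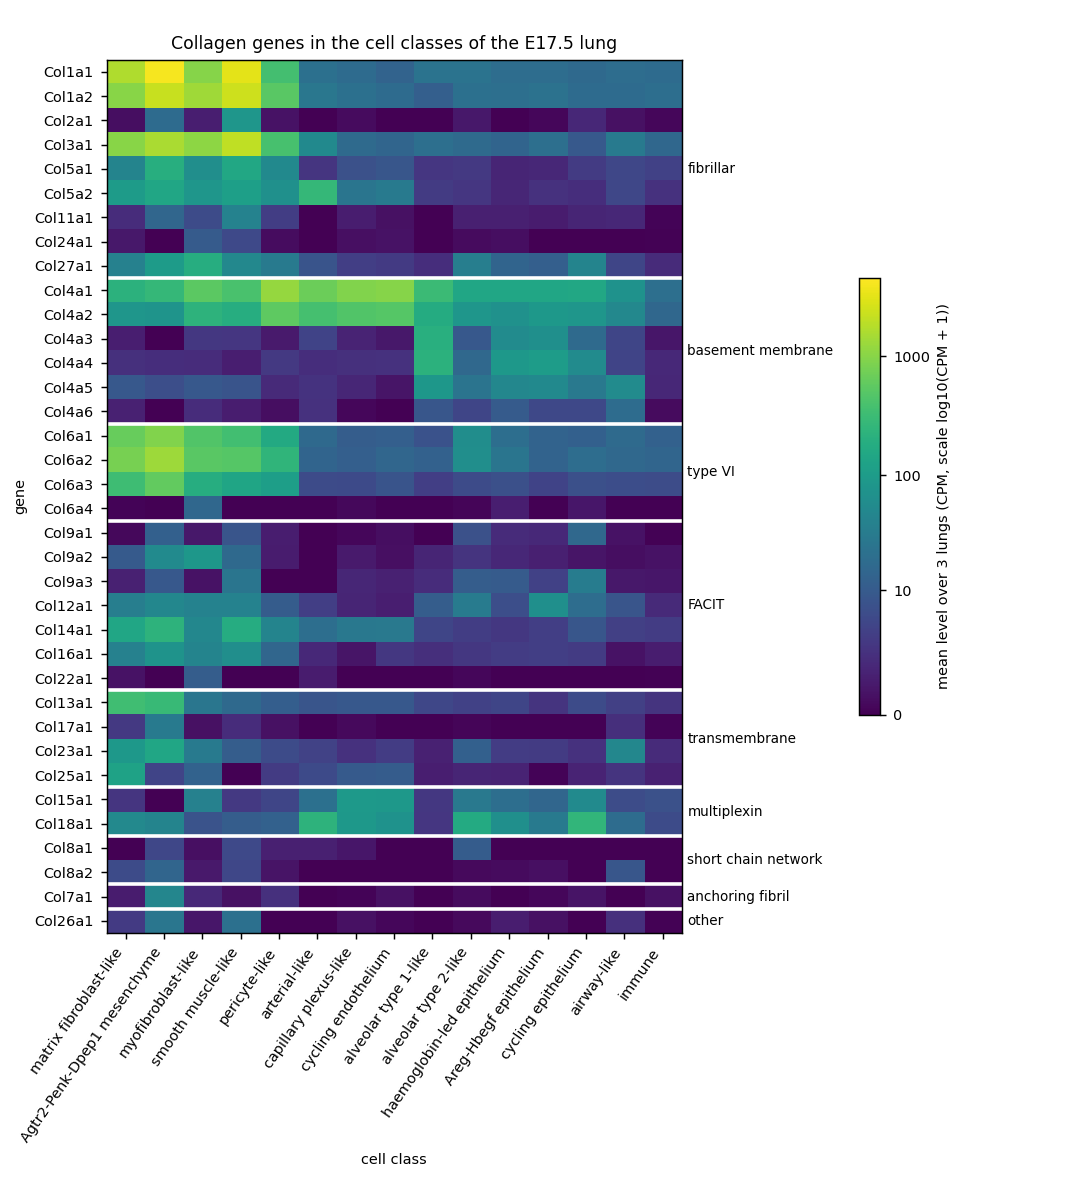
Mean CPM of each of those 36 collagen genes (rows, by chain type) in each cell class of the E17.5 lung (columns), as colour on a log10(CPM + 1) scale, averaged over the 3 lungs. The fibrillar and type VI rows are bright across the mesenchymal columns, and Col4a1 and Col4a2 are bright in pericyte-like and endothelial columns. Col4a3 and Col4a4 are brightest in the alveolar type 1-like column.

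Between the 4 compartments, 22 of the 43 genes had a mean of 10 CPM or more and were tested. In mesenchyme 17 were higher and 4 lower, where 43.4% and 33.9% of all 4217 genes tested were. In endothelium 6 were higher and 16 lower (52.7% and 26.4% of all genes), in epithelium 6 and 15 (27.2% and 50.0%), and in immune cells 0 and 22 (27.2% and 58.8%). Most genes of any kind differed between compartments, so the number of collagens called says little, and the sizes are what is described here. A gene can also pass the filter through the class where it is high: 17 of the higher calls, in 14 members over all the comparisons made within E17.5, had a mean under 10 CPM in the other classes. In the fit without a filter on low values 16 of these 17 were also higher, Col11a1 being the exception. The median log2 difference of the members in mesenchyme was 2.30, beside 0.06 over all genes tested. Median-of-ratios scaling moved the median of all genes by -0.21 in endothelium, -0.14 in mesenchyme and 0.30 in immune cells, and the higher share of all calls from 66.7% to 43.9%, from 56.1% to 42.4% and from 31.6% to 51.1%. The collagen calls under that scaling were 6 higher and 16 lower in endothelium, 17 and 4 in mesenchyme, 6 and 14 in epithelium and 0 and 22 in immune cells.

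The fibrillar chains of type I and type III collagen were the most strongly mesenchymal. Col1a1, the main chain of type I collagen, measured 1426, 1808 and 1457 CPM in the mesenchyme of lungs 1, 2 and 3, against 17.9, 17.4 and 18.2 CPM in their immune cells. Col1a2, its partner chain, measured 1137, 1194 and 1219.7 CPM in mesenchyme and 21.5, 20.7 and 18 CPM in immune cells. Every mesenchymal value stood far above every value of the other tested compartments. Both genes were higher in mesenchyme (Col1a1 log2 difference 5.76, SE 0.07, adjusted p = 2.13e-29 and Col1a2 log2 difference 5.30, SE 0.06, adjusted p = 3.73e-30, limma with Benjamini-Hochberg adjustment, higher in 3 of 3 lungs). Col3a1, which forms thin fibrils in distensible tissue, was 1049.6 ± 242 CPM in mesenchyme and 19.4 ± 5.56 CPM in endothelium (log2 difference of mesenchyme 5.25). In cells thinned to 2000 UMIs, 83.3% of mesenchymal cells had a Col1a1 UMI, against 2.92% of immune, 3.01% of endothelial and 4.05% of epithelial cells. The Col1a1, Col1a2 and Col3a1 levels of endothelium and epithelium, 17.6 to 21.4 CPM, are at the immune level and are not read as expression. Median depths were 7437, 8382.5 and 6776 UMIs per mesenchymal cell and 7759, 7876 and 6764 per immune cell in lungs 1, 2 and 3.

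Among the 5 mesenchymal subclasses 24 members were tested, and the collagens called were 8 higher and 6 lower of 24 in matrix fibroblast-like cells (7.67% and 10.2% of all genes), 5 and 6 in myofibroblast-like cells (12.5% and 7.89%), 7 and 6 in smooth muscle-like cells (5.57% and 6.30%), 2 and 18 in pericyte-like cells (14.2% and 12.5%) and 17 and 4 in the Agtr2 class (12.6% and 21.6%). As a gene can pass the filter through 1 subclass alone, these counts are a description. The median log2 difference of the members was 1.00 in the Agtr2 class and -1.17 in pericyte-like cells, beside -0.10 and 0.04 over all genes tested. The Agtr2 class rests on 20, 26 and 25 cells per lung. The count in myofibroblast-like cells fell from 5 to 3 higher without lung 2, with median-of-ratios scaling and with summed UMIs. With edgeR the higher share of all calls went from 46.9% to 68.4% in smooth muscle-like cells, from 36.9% to 57.9% in the Agtr2 class, from 42.9% to 54.4% in matrix fibroblast-like cells and from 35.2% to 48.5% in epithelium. The collagen splits with edgeR were 10 higher and 5 lower, 17 and 2, 9 and 7, and 8 and 11 in these classes.

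The fibrillar chains of types I and III set apart the smooth muscle-like, Agtr2 and pericyte-like cells. Smooth muscle-like cells had Col1a1 at 2621, 3702 and 3124 CPM and Col3a1 at 1579, 2664 and 1711 CPM in lungs 1, 2 and 3. Pericyte-like cells had Col1a1 at 394, 393 and 290.4 CPM and Col3a1 at 376, 457 and 336 CPM. The groups did not overlap for either gene. Against the other subclasses, Col1a1 was higher in smooth muscle-like cells (log2 difference 1.34, SE 0.08, adjusted p = 1.25e-10), higher in the Agtr2 class (log2 difference 1.77, SE 0.08, adjusted p = 2.17e-12) and lower in pericyte-like cells (log2 difference -2.53, SE 0.08, adjusted p = 3.82e-15), each by limma with Benjamini-Hochberg adjustment. Col1a2 and Col3a1 differed in the same directions (Col1a2 1.07, 0.94 and -1.63, Col3a1 1.11, 0.70 and -1.75 on the log2 scale). The type I chains also differed in the remaining subclasses. Col1a1 was lower in myofibroblast-like cells (log2 difference -0.78, SE 0.08, adjusted p = 1.98e-07, limma with Benjamini-Hochberg adjustment). Col1a2 was lower in matrix fibroblast-like cells (log2 difference -0.48, SE 0.05, adjusted p = 1.92e-06, same test). The chain mix also moved between classes: the ratio of Col1a1 to Col1a2 UMIs was 1.77 ± 0.316 in the Agtr2 class, 1.6 ± 0.213 in matrix fibroblast-like and 1.32 ± 0.164 in smooth muscle-like cells, against 0.696 ± 0.0953 in myofibroblast-like and 0.679 ± 0.0962 in pericyte-like cells. These 2 sets of ratios did not overlap in any lung. In mesenchyme as a whole Col3a1 measured 873, 1326 and 949.9 CPM, with lung 2 above the other lungs, as for Col1a1.

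The other fibrillar genes had narrower homes. Col5a1, a chain of the type V collagen that starts type I fibrils, was 197 ± 27.8 CPM in the Agtr2 class and 153 ± 31.1 CPM in smooth muscle-like cells, against 44.1 ± 3.07 CPM in matrix fibroblast-like cells, where it was lower (log2 difference -1.03). Col27a1, a fibrillar chain known from cartilage, measured 169.6, 183 and 206 CPM in myofibroblast-like cells and 37.9, 41.1 and 39.1 CPM in matrix fibroblast-like cells of lungs 1, 2 and 3. The lowest myofibroblast value was above the highest value of each other subclass, and Col27a1 was higher there (log2 difference 1.71, SE 0.15, adjusted p = 3.72e-08, limma with Benjamini-Hochberg adjustment). Col24a1 reached 10.0 ± 1.15 CPM in the same class and was under the filter. In smooth muscle-like cells Col27a1 was called lower (log2 difference -0.47, adjusted p = 0.0444), and that call was lost under 8 alternatives, with adjusted p between 0.0506 and 0.232. Col11a1 and Col2a1, fibrillar chains of cartilage, measured 10.7, 98.7 and 13.8 CPM and 0, 247 and 0 CPM in smooth muscle-like cells. The lung 2 values stood far above the others, and 1 cell, described under the other observations, held all 101 Col2a1 UMIs and 24 of the 40 Col11a1 UMIs of that class in lung 2. Col11a1 was called higher there (log2 difference 1.32, adjusted p = 0.0142), but the adjusted p was 0.0628 without lung 3, 0.0634 with a pseudocount of 1 CPM and 0.0996 without the filter. Without lung 2, and without the cells of 10 or more Col2a1 UMIs, Col11a1 fell under the filter and was not tested. The summed level of 6 cardiac muscle markers was 79 to 1006 CPM in smooth muscle-like cells and 5.29 to 8.26 CPM in matrix fibroblast-like cells, with 5 of the 6 above 10 CPM and 1 at 0 in smooth muscle-like cells. Their part in these results was not tested.

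**Figure D2:**
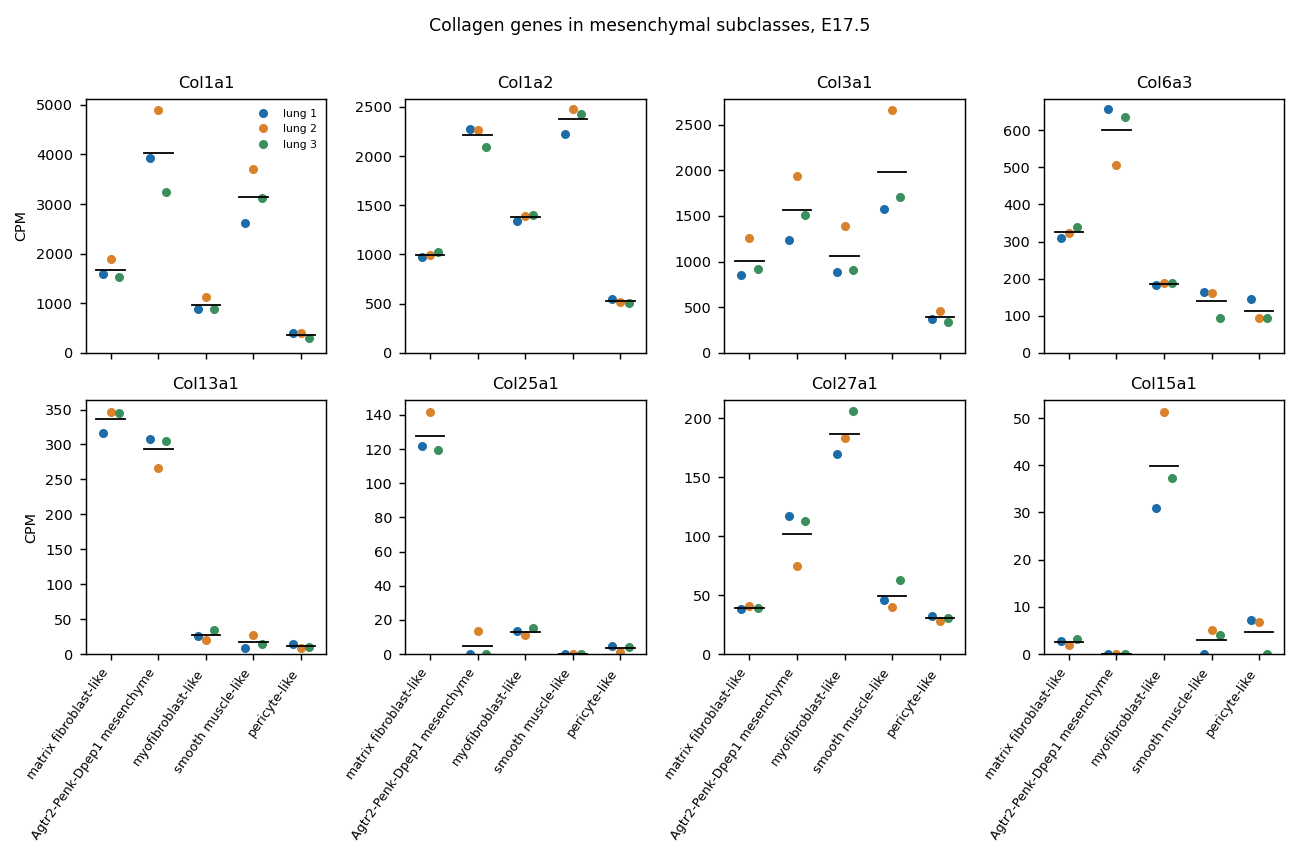
CPM (vertical axis, linear, a separate range per panel) of 8 collagen genes in 5 mesenchymal subclasses of the E17.5 lung; each point is 1 lung and the line is the mean of the 3. Col1a1 and Col1a2 are high in the Agtr2 and smooth muscle-like classes, Col13a1 in the matrix fibroblast-like and Agtr2 classes, Col25a1 in matrix fibroblast-like cells and Col27a1 and Col15a1 in myofibroblast-like cells.

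The 6 type IV genes lie in the genome as pairs transcribed away from each other. In the GRCm38 annotation Col4a1 and Col4a2 overlap by 22 bases at their starts, Col4a4 and Col4a3 are 71 bases apart, and Col4a6 and Col4a5 are 1308 bases apart. The promoter windows of Col4a1, Col4a2 and Col4a4 from RefSeq (GRCm38.p6, 250 bases before to 50 bases after the start, 5′ to 3′ on the gene's strand) are shown because Col4a1 and Col4a2, and likewise Col4a3 and Col4a4, were high in the same classes in what follows. Capitals mark short promoter motifs on either strand. The motifs are the GC box, whose letters are GGGCGG. The CCAAT box is searched by the letters of its name. The letters of the TATA box are TATAAA. The windows lie at chr8:11312777-11313076 (minus strand), chr8:11312555-11312854 (plus strand) and chr1:82586800-82587099 (minus strand), and the first pair share 78 bases.
Col4a1: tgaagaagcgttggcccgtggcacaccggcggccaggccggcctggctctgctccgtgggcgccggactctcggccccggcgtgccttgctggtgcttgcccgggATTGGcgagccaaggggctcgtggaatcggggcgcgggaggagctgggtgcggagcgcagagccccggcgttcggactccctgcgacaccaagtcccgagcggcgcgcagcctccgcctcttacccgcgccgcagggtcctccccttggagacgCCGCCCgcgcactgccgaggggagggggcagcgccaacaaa
Col4a2: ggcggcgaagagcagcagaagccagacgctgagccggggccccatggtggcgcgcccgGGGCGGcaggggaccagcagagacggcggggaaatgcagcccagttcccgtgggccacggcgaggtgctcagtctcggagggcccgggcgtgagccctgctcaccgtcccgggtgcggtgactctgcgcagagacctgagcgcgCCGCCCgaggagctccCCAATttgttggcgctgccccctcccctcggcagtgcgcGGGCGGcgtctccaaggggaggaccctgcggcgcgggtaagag
Col4a4: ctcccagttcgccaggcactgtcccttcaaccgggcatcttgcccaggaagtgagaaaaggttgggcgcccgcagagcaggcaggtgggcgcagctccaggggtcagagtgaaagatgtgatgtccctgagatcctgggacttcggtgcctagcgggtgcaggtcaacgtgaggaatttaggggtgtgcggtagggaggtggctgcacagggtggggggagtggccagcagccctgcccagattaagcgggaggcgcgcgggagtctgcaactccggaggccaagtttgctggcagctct
Col4a1 had 1 GC box and 1 CCAAT box, and Col4a2 had 3 GC boxes and 1 CCAAT box. The GC box of Col4a1 lies in the shared bases and is the same site as the last GC box of Col4a2. Col4a4 had none of the motifs searched. Over the 38 windows of the 34 collagen genes that RefSeq's table matched, 23 (60.5%) held a GC box, 13 (34.2%) a CCAAT box and 5 (13.2%) a TATA box, against 35.7%, 37.4% and 13.6% of all 32851 windows.

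Col4a1 and Col4a2, whose chains form the type IV network found in all basement membranes, were highest in pericyte-like and endothelial cells. Col4a1 measured 880.1, 914 and 862 CPM in endothelium, 367, 434 and 427 CPM in mesenchyme and 151, 144 and 169 CPM in epithelium of lungs 1, 2 and 3. Col4a2 measured 456, 438 and 449.6 CPM, 168, 189 and 168 CPM and 84.8, 82.3 and 93.5 CPM in the same order. The 3 compartments did not overlap for either gene. Both were higher in endothelium (Col4a1 log2 difference 2.81, SE 0.05, adjusted p = 1.79e-26 and Col4a2 log2 difference 2.57, SE 0.05, adjusted p = 4.67e-25, limma with Benjamini-Hochberg adjustment). Endothelium gave 48.1% ± 5.09 of all Col4a1 UMIs of a lung, mesenchyme 31.6% ± 0.42 and epithelium 17.8% ± 4.61. In pericyte-like cells Col4a1 measured 1159.8, 1182 and 1225 CPM, above every endothelial value, and against the other mesenchymal subclasses Col4a1 and Col4a2 were the only members of the 24 that were higher there (log2 differences 1.80 and 2.05). Both were lower in matrix fibroblast-like cells (-1.18 and -1.24) and in the Agtr2 class (-0.86 and -1.39). The call of Col4a1 in myofibroblast-like cells (log2 difference 0.38, adjusted p = 0.026) was lost under 6 alternatives, with adjusted p between 0.0515 and 0.157. The ratio of Col4a1 to Col4a2 UMIs was 2.35 ± 0.157 in mesenchyme, 2.01 ± 0.0819 in endothelium and 1.76 ± 0.0594 in epithelium.

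Col4a3, Col4a4 and Col4a5, whose chains join into the network of the glomerular and alveolar basement membranes, were mainly epithelial. Epithelium held 89.5% ± 3.7 of a lung's Col4a3 UMIs, 87.8% ± 3.11 of Col4a4 and 80.9% ± 0.827 of Col4a5, beside 32.4% ± 2.6 of all UMIs. Mesothelium-like cells, described under the other observations, held 4.35% ± 4.1 of Col4a3 and 6.00% ± 3.68 of Col4a4 UMIs, beside 0.423% ± 0.334 of all UMIs. Col4a4 measured 61.8, 55.2 and 71.6 CPM in the epithelium of lungs 1, 2 and 3 and 2.18, 1.16 and 1.47 CPM in immune cells. All 3 genes passed the filter through epithelium alone. In the fit without it, Col4a4 was higher in epithelium (log2 difference 2.60, adjusted p = 7.49e-10 without the filter, limma with Benjamini-Hochberg adjustment), as were Col4a3 (log2 difference 2.24) and Col4a5 (1.90). Within epithelium, Col4a3 measured 173, 186 and 246 CPM in alveolar type 1-like cells and 8.22, 6.73 and 12.5 CPM in alveolar type 2-like cells, which make surfactant. Col4a4 measured 187, 234 and 234 CPM and 19.4, 12.4 and 17 CPM in the same classes. Every type 1 value was far above every type 2 value for both genes. Of 14 members tested between these classes, 5 were higher and 6 lower in type 1-like cells, where 16.2% and 14.2% of all genes were. All 5 higher members were type IV genes: Col4a3 (log2 difference 3.46, adjusted p = 3.94e-06 without the filter), Col4a4 (log2 difference 3.12, SE 0.17, adjusted p = 1.29e-13), Col4a5 (log2 difference 1.46), Col4a1 (1.04) and Col4a2 (1.00), by limma with Benjamini-Hochberg adjustment. The remaining type IV gene, Col4a6, was below the filter and reached 18.6 ± 8.71 CPM in airway-like cells against 8.56 ± 5.93 CPM in type 1-like cells. Airway-like cells kept Col4a5 at 56 ± 32.6 CPM with Col4a3 at 4.89 ± 4.24 CPM and Col4a4 at 4.54 ± 5.75 CPM. Col4a3 overlaps a neighbouring gene in the annotation, and the strand of counting is not stated, so reads of that neighbour cannot be told apart from its own.

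**Figure D3:**
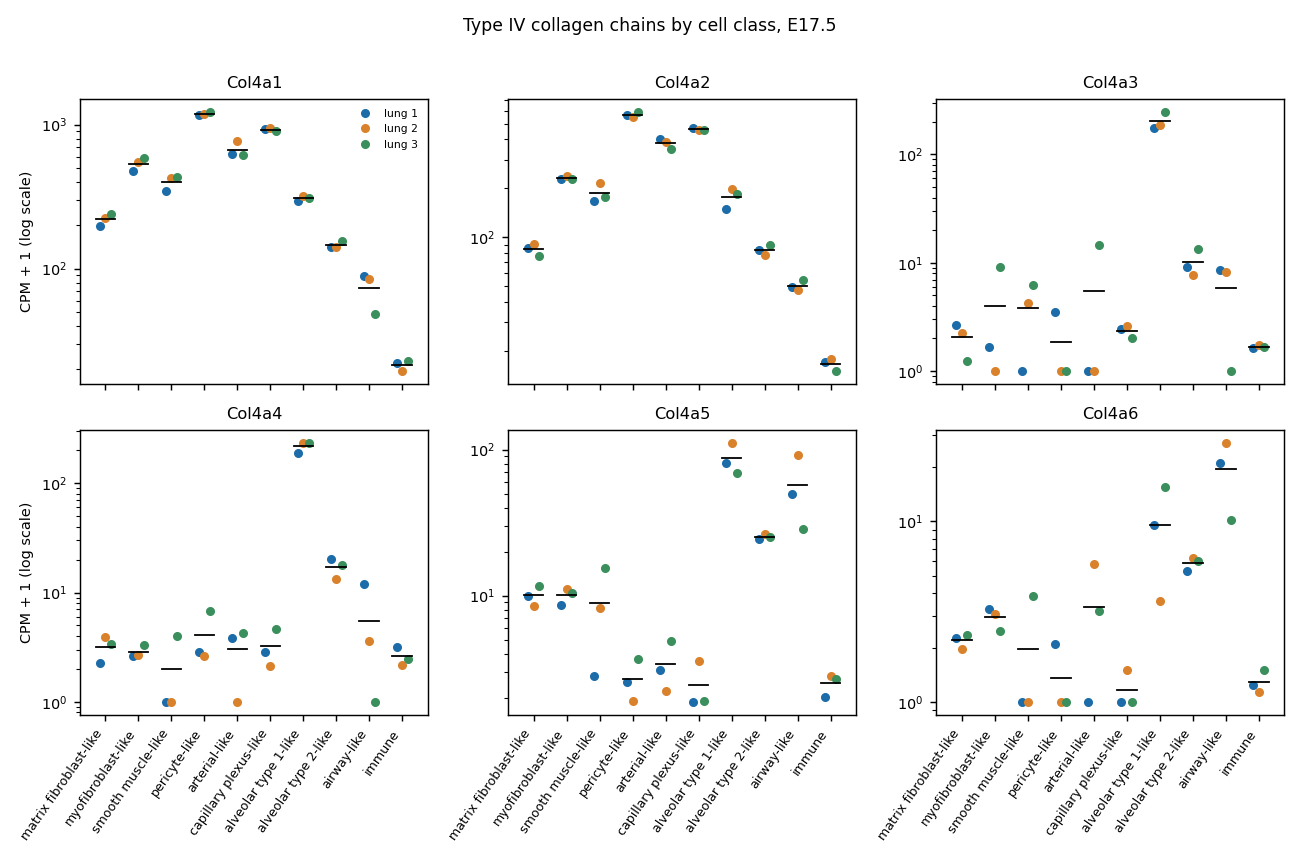
CPM + 1 on a log axis of the 6 type IV collagen genes in cell classes of the E17.5 lung; each point is 1 lung and the line is the mean of the 3. Col4a1 and Col4a2 are highest in pericyte-like and endothelial classes, and Col4a3 and Col4a4 in alveolar type 1-like cells among the epithelial classes.

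The type VI chains Col6a1, Col6a2 and Col6a3, which assemble together, were mesenchymal, with a further level in alveolar type 2-like cells for the first pair. In mesenchyme of lungs 1, 2 and 3 Col6a2 measured 668, 709 and 663 CPM and Col6a1 512, 560.0 and 536 CPM, against 14.5, 16.2 and 13.4 CPM and 13.8, 11.6 and 12.6 CPM in immune cells. These did not overlap, and all were higher in mesenchyme (log2 differences 4.52 for Col6a2, 4.29 for Col6a1 and 4.11 for Col6a3). Col6a3 passed the filter through mesenchyme alone. In the fit without a filter it was also higher there (adjusted p = 5.74e-11, limma with Benjamini-Hochberg adjustment). Among mesenchymal subclasses all 3 were higher in the Agtr2 class (log2 differences 1.32, 1.44 and 1.72 for Col6a1, Col6a2 and Col6a3) and in matrix fibroblast-like cells (0.70, 0.60 and 0.65) and lower in pericyte-like cells (-1.73, -1.52 and -1.21). Col6a3 measured 656, 506 and 636 CPM in the Agtr2 class and 146, 94.1 and 95.1 CPM in pericyte-like cells, with no overlap (log2 difference 1.72, SE 0.13, adjusted p = 6.88e-09 for the Agtr2 class, limma with Benjamini-Hochberg adjustment). Col6a4 stood apart from these chains: it was 15.5 ± 1.65 CPM in myofibroblast-like cells and 0.28, 0 and 0 CPM in matrix fibroblast-like cells of lungs 1, 2 and 3.

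In alveolar type 2-like cells Col6a1 measured 56, 55.4 and 68.2 CPM and Col6a2 61, 59.1 and 67.3 CPM, beside 3.8, 10.7 and 7.38 CPM and 13.2, 15 and 9.89 CPM in type 1-like cells of lungs 1, 2 and 3. The classes did not overlap, and both genes were lower in type 1-like cells (log2 differences -2.03 and -1.68, adjusted p = 6.02e-08 and 4.9e-07, limma with Benjamini-Hochberg adjustment). Immune cells gave 12.7 ± 1.12 CPM and 14.7 ± 1.41 CPM, near the type 1 levels. Col6a3 did not follow: it was 5.74 ± 0.709 CPM in type 2-like and 5.98 ± 1.74 CPM in immune cells. The ratios between chains differed too. Col6a2 to Col1a1 was 2.79 ± 0.703 in type 2-like cells, 0.866 ± 0.128 in immune cells and 0.45 ± 0.0442 in mesenchyme, and Col6a3 to Col6a2 was 0.151 ± 0.0324 in epithelium, 0.431 ± 0.102 in immune cells and 0.388 ± 0.023 in mesenchyme. In cells thinned to 2000 UMIs, a Col6a2 UMI was found in 10.9% of type 2-like, 3.37% of type 1-like and 2.69% of immune cells. Against the other compartments epithelium as a whole was lower for both genes on the log scale (-0.54 and -0.61), since mesenchyme enters that average. For Col6a1 the value was 0.01 with edgeR on UMI counts.

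**Figure D4:**
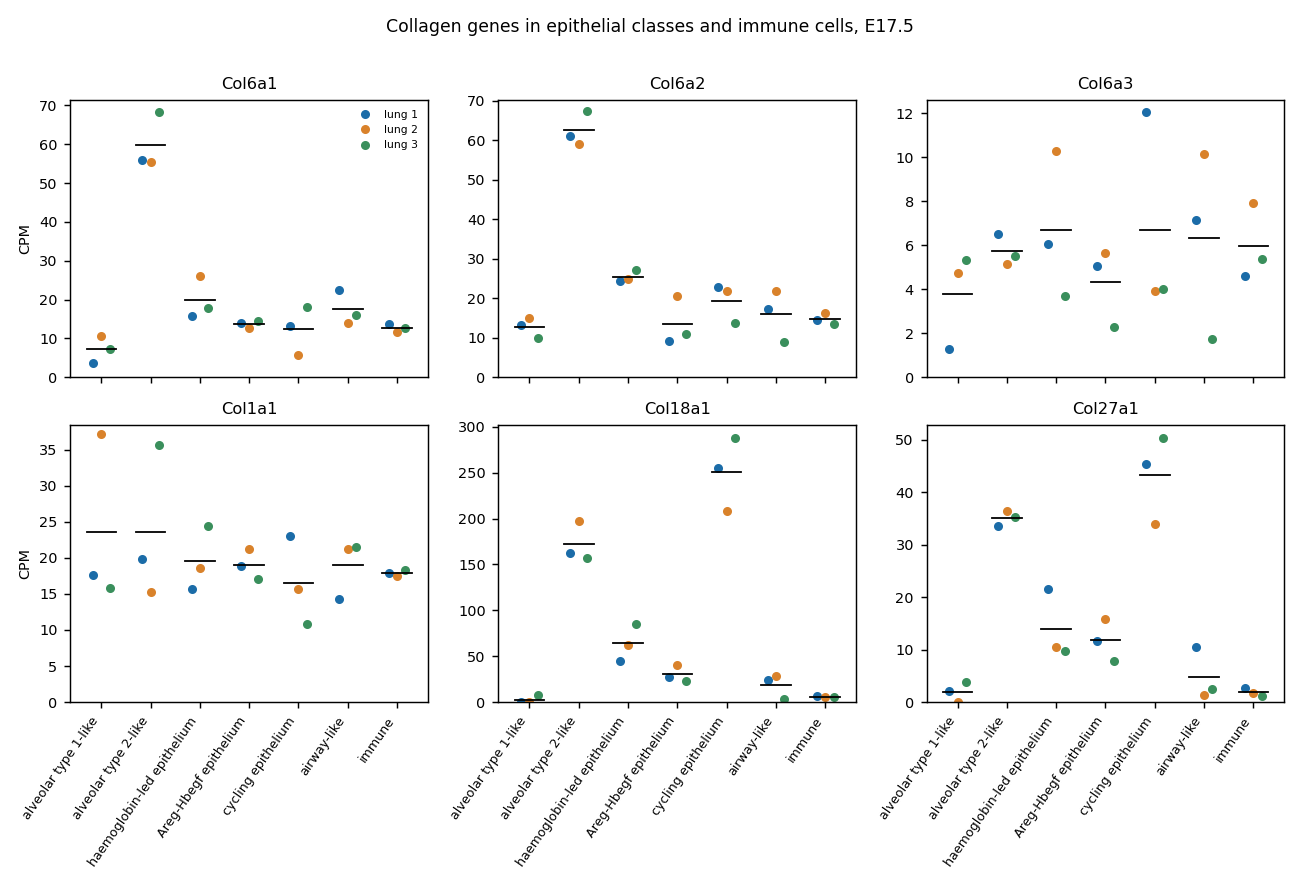
CPM (vertical axis, linear, a separate range per panel) of 6 collagen genes in 6 epithelial classes and immune cells of the E17.5 lung; each point is 1 lung and the line is the mean of the 3. Col6a1 and Col6a2 are higher in alveolar type 2-like cells than in the other classes shown, Col6a3 and Col1a1 are not, and Col18a1 and Col27a1 are high in type 2-like and cycling epithelium.

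Of the 9 FACIT genes, 7 reached 10 CPM and most sat in mesenchyme. Col14a1, a FACIT of fibril surfaces, measured 115, 116 and 118 CPM in mesenchyme, 26.2, 23.5 and 31.7 CPM in endothelium and 5.04, 1.34 and 3.93 CPM in immune cells of lungs 1, 2 and 3. The 3 compartments did not overlap, and Col14a1 was higher in mesenchyme (log2 difference 2.73, SE 0.08, adjusted p = 6.1e-22) and slightly higher in endothelium (log2 difference 0.37, SE 0.08, adjusted p = 9.5e-05), by limma with Benjamini-Hochberg adjustment. Among subclasses it was higher in the Agtr2 class (log2 difference 1.27) and in smooth muscle-like cells (0.90), and lower in myofibroblast-like (-1.27) and pericyte-like cells (-1.39). Its call in matrix fibroblast-like cells (0.50) was lost without any 1 of the lungs (adjusted p = 0.0521, 0.14 and 0.0778 without lungs 1, 2 and 3). Col16a1, found near fibrils and basement membranes, was 40.7 ± 5.96 CPM in mesenchyme and higher there (log2 difference 2.11). It passed the filter through mesenchyme alone. In the fit without a filter it was also higher there (adjusted p = 4.01e-09, limma with Benjamini-Hochberg adjustment).

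Col9a2, a chain of the type IX FACIT known from cartilage, had its highest mean level in myofibroblast-like cells. It measured 78, 84.8 and 92.4 CPM there, 21.1, 88.7 and 57.1 CPM in the Agtr2 class and 9.24, 11.2 and 8.53 CPM in matrix fibroblast-like cells of lungs 1, 2 and 3. The myofibroblast values were higher against the other subclasses together (log2 difference 2.07, SE 0.29, adjusted p = 2.09e-05, limma with Benjamini-Hochberg adjustment). By the same test Col9a2 was also higher in the Agtr2 class (log2 difference 1.21, SE 0.29, adjusted p = 0.00303). That call was lost without lung 3 (adjusted p = 0.063). Its partner chains did not share this pattern: Col9a1 was 0.725 ± 0.808 CPM and Col9a3 0.492 ± 0.487 CPM in myofibroblast-like cells, while cycling epithelium had 16.3 ± 8.31 CPM and 33.5 ± 14.4 CPM with Col9a2 at 0.613 ± 1.06 CPM. Col9a3 overlaps another gene in the annotation. Col12a1, a FACIT of stress-bearing tissue, was present in both mesenchyme and epithelium. It measured 33.2, 34.9 and 36 CPM in mesenchyme and 26, 28.6 and 26.8 CPM in epithelium, against 1.09, 2.1 and 1.93 CPM in immune cells. It was higher in mesenchyme (log2 difference 1.38) and in epithelium (1.03). Among epithelial classes it was 65 ± 21.8 CPM in a class led by Areg and Hbegf, 31.9 ± 2.9 CPM in type 2-like cells and 11 ± 10.7 CPM in type 1-like cells, where it was lower than in type 2-like cells (log2 difference -1.10). That call was lost in the fit without a filter (adjusted p = 0.0504, limma with Benjamini-Hochberg adjustment). Col22a1, a FACIT of tissue junctions, reached 11.1 ± 2.37 CPM in myofibroblast-like cells and had 0 UMIs in smooth muscle-like cells, pericyte-like cells and the Agtr2 class, which allows up to 2.51, 1.83 and 6.95 CPM.

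Of the 4 transmembrane collagens, Col13a1 and Col25a1 had the widest differences of the 24 members tested in matrix fibroblast-like cells. The promoter windows of Col13a1 (RefSeq, GRCm38.p6, chr10:61979059-61979358, minus strand) and Col25a1 (chr3:130180595-130180894, plus strand) are shown because these members carry the matrix fibroblast pattern; capitals mark the same motifs as above.
Col13a1: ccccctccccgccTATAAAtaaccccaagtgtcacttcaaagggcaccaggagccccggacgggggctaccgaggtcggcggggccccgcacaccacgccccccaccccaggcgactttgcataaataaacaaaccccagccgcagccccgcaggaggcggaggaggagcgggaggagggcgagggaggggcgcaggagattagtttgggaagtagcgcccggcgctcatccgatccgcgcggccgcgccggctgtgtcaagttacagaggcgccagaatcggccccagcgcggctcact
Col25a1: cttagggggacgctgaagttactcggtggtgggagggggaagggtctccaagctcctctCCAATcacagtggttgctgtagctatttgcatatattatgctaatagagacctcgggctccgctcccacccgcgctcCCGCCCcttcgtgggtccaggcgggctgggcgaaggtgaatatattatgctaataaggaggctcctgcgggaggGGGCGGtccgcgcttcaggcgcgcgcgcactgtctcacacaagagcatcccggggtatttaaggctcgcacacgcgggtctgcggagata
Col13a1 had 1 TATA box letter match, and Col25a1 had 2 GC boxes and 1 CCAAT box. Col13a1, a transmembrane collagen of adhesive junctions, measured 316, 347 and 346 CPM in matrix fibroblast-like cells, 307, 267 and 304 CPM in the Agtr2 class and 25.8, 19.9 and 34 CPM in myofibroblast-like cells of lungs 1, 2 and 3. Col25a1, known for its role at motor nerve endings, measured 122, 142 and 119 CPM, 0, 13.6 and 0 CPM and 13.5, 11 and 15 CPM in the same order. Matrix fibroblast-like and Agtr2 cells thus shared a high Col13a1 level, while Col25a1 was high in the former and at 0 to 13.6 CPM in the latter. Col13a1 was higher in matrix fibroblast-like cells (log2 difference 2.81, SE 0.18, adjusted p = 6.59e-10) and in the Agtr2 class (log2 difference 2.57, SE 0.18, adjusted p = 1.9e-09), and Col25a1 was higher in matrix fibroblast-like cells (log2 difference 3.27, adjusted p = 8.93e-06 without the filter, through which alone it passed) and lower in the Agtr2 class (log2 difference -0.93), by limma with Benjamini-Hochberg adjustment. That last call reversed to 0.40 with edgeR (adjusted p = 0.748). Col25a1 had 0 UMIs in 138 smooth muscle-like cells, which allows up to 2.51 CPM, or a UMI in up to 2.17% of cells, for counting error only.

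Col23a1, which is shed from the cell surface, was 144 ± 55.7 CPM in the Agtr2 class and 86.6 ± 9.94 CPM in matrix fibroblast-like cells, and higher in both (log2 differences 2.14 and 1.38). It was 47.9 ± 15.3 CPM in airway-like cells, against 12 ± 2.62 CPM in type 2-like and 1.19 ± 1.09 CPM in type 1-like cells. Col17a1, the hemidesmosome collagen of stratified epithelia, was 2.11 ± 3.66 CPM in airway-like cells and 31.5 ± 17.8 CPM in the Agtr2 class. Weak compartment calls of this group did not hold: Col23a1 in epithelium (-0.19) turned to 0.25 with a pseudocount of 1 CPM, and Col25a1 in endothelium (-0.19) to 0.52.

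Of the multiplexins, Col18a1 was higher in both endothelium and epithelium, and Col15a1 in endothelium. Col18a1, whose C-terminal piece is endostatin, measured 109, 119 and 110.0 CPM in epithelium, 98.7, 112 and 93.1 CPM in endothelium and 32.1, 31.7 and 37.6 CPM in mesenchyme of lungs 1, 2 and 3. Col15a1 measured 24, 26.3 and 20.8 CPM, 82.2, 99 and 72.2 CPM and 9.81, 13.5 and 11.3 CPM in the same order. Col18a1 was higher in epithelium (log2 difference 1.53, SE 0.06, adjusted p = 7.43e-18) and endothelium (log2 difference 1.34, SE 0.06, adjusted p = 1.48e-16), and Col15a1 in endothelium (log2 difference 2.02, SE 0.07, adjusted p = 5.37e-20), by limma with Benjamini-Hochberg adjustment. In epithelium Col15a1 did not pass the test (log2 difference 0.05, adjusted p = 0.522). In alveolar type 1-like cells Col18a1 measured 0, 0 and 8.3 CPM, against 163, 197 and 157 CPM in type 2-like cells. The classes did not overlap, and this was the widest alveolar difference of any member tested (log2 difference -3.89, adjusted p = 1.95e-13); Col15a1 (-1.62) and Col27a1 (-1.92) were also lower there. Cycling epithelium held 250.3 ± 40.1 CPM of Col18a1 and 55.6 ± 5.95 CPM of Col15a1. Within mesenchyme, Col15a1 was higher in myofibroblast-like cells (log2 difference 1.99, 39.8 ± 10.4 CPM). It passed the filter through that class alone, and fell under it without lung 2. In the fit without a filter it was also higher there (adjusted p = 5.3e-05, limma with Benjamini-Hochberg adjustment). Col15a1 had 0 UMIs in the 71 cells of the Agtr2 class, which allows up to 6.95 CPM. Col18a1 was higher in matrix fibroblast-like cells (log2 difference 1.29) and the Agtr2 class (1.05). Col18a1 and Col15a1 each overlap another gene in the annotation.

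Within endothelium, 11 members were tested between arterial-like and capillary plexus-like cells, and 3 were higher and 3 lower in the arterial class, where 7.04% and 7.75% of all genes were. Col5a2, a type V chain, measured 252, 282 and 279 CPM in arterial-like and 23.5, 27.4 and 24.8 CPM in capillary plexus-like cells of lungs 1, 2 and 3, and 102, 149 and 87.5 CPM in smooth muscle-like cells. Arterial-like values were above all of these, and Col5a2 was higher in the arterial class (log2 difference 2.99, SE 0.18, adjusted p = 5.26e-16). Col18a1 was higher too (226 ± 15.7 CPM against 86.4 ± 16.1 CPM, adjusted p = 3.04e-08), and Col15a1 was lower (21.1 ± 16.8 CPM against 89.2 ± 15.5 CPM, log2 difference -1.81), by limma with Benjamini-Hochberg adjustment. Col4a1 was lower by a small amount (-0.47). The calls of Col3a1 (log2 difference 0.88, adjusted p = 0.0396) and Col4a2 (-0.28, adjusted p = 0.0478) did not hold: Col3a1 measured 17.6, 114 and 27.1 CPM, and without lung 2 its adjusted p was 0.697. The summed level of 9 mesenchymal markers was 740.2 to 846 CPM in arterial-like and 334 to 371 CPM in capillary plexus-like cells, with 3 and 2 of them above 10 CPM and 2 and 1 at 0. Col1a1 and Col1a2, fibrillar genes of mesenchyme, had log2 differences of 0.16 and 0.14 (adjusted p = 0.803 and 0.83).

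Rarer chains had small homes of their own. Col7a1, the anchoring fibril collagen, measured 73.3, 35.2 and 33.2 CPM in the Agtr2 class and was at or under 2.25 CPM on average in the other mesenchymal subclasses. It passed the filter through that class alone, and fell under it without lung 1, so its call is given from the fit without a filter (log2 difference 2.28, adjusted p = 3.88e-06, limma with Benjamini-Hochberg adjustment). Col26a1, a small secreted collagen of mesenchyme, measured 13.3, 35.4 and 15.2 CPM in smooth muscle-like cells and 19, 33.5 and 25.5 CPM in the Agtr2 class. It averaged under 10 CPM in the other subclasses of each comparison, and fell under the filter without lung 2. Its calls are therefore given from the fit without a filter. There it was higher in both classes (log2 differences 1.00 and 1.31, adjusted p = 0.00635 and 0.000601, limma with Benjamini-Hochberg adjustment). It had 0 UMIs in 197 pericyte-like cells, which allows up to 1.83 CPM. Col8a2, a short chain network collagen, was 14.6 ± 12.7 CPM in the Agtr2 class and 5.73 ± 1.12 CPM in matrix fibroblast-like cells, under the filter of the fit.

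Most genes of the enzymes that make and cross-link collagen were higher in mesenchyme than in the other compartments, but their counts differed between its subclasses. Of 33 such genes 26 were tested between compartments, and 25 were higher and 1 lower in mesenchyme. Lox, a cross-linking lysyl oxidase, was 488 ± 88.9 CPM there (log2 difference 4.50). Adamts2, which removes procollagen ends, differed by 3.44, Loxl1 by 3.29 and Pcolce, an enhancer of procollagen trimming, by 3.04. In pericyte-like cells 5 of 27 were higher and 8 lower, led by Lox (-4.21), Adamts2 (-3.10), Loxl1 (-3.05) and P4ha3 (-2.49), a prolyl hydroxylase subunit. In the Agtr2 class 16 were higher and 1 lower, and in smooth muscle-like cells 6 and 0. Among fibrillar chains in matrix fibroblast-like cells, Col1a1 (0.21) and Col3a1 (-0.07) did not pass the test. Col1a2 (-0.48), Col5a1 (-1.03) and Col27a1 (-0.77) were lower there. Of the 27 enzyme genes 4 were higher and 15 lower in these cells, with a median log2 difference of -0.47. Myofibroblast-like cells had 7 higher and 8 lower, with P4ha3 at 2.39 against Pcolce at -2.18 and Pcolce2 at -2.03. Type 1-like cells had 5 higher and 2 lower of 20 against type 2-like cells, among them Pxdn (3.01), the peroxidase that cross-links type IV collagen, and Sparc (2.37), a collagen-binding secreted protein. Of 11 collagen receptor genes 5 were tested, and 4 were higher and 1 lower in mesenchyme. Itga1, the integrin chain that binds type IV collagen, was higher in pericyte-like cells (log2 difference 2.73), and Ddr1, a collagen-binding receptor kinase, in type 1-like cells (2.90). The shares over all genes are those given above for each comparison.

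Between the E16.5 sort and the E17.5 lungs, a 2-fold rule named collagens in matrix fibroblast-like and contractile cells and 0 in pericyte-like cells. The median log2 difference of the members was -0.40 in pericyte-like cells, near the -0.44 of contractile cells, so the split between classes belongs to the rule. With 1 sorted sample there is no test; a gene is named here when the sort was at least 2-fold beyond every lung and the level was at least 10 CPM. In matrix fibroblast-like cells 2 of 21 members were higher and 3 lower in the sort, where 4.14% and 4.17% of 4248 genes were. Col26a1 was 39.9 CPM in the sort and 3.14, 2.78 and 3.53 CPM in lungs 1, 2 and 3, and Col9a2 was 25.6 CPM against 9.24, 11.2 and 8.53 CPM. Col6a3 was 149 CPM against 310.1, 324 and 340.2 CPM, Col12a1 12.4 CPM against 34.1, 38 and 34 CPM and Col18a1 20.3 CPM against 48, 51 and 56 CPM. On summed UMIs the sort's Col6a3 level was 144 CPM with an exact 95% Poisson interval of 132 to 156 CPM, which covers counting error only. Col6a1 and Col6a2, the partners of Col6a3, were 469.5 and 635 CPM in the sort against 639 ± 37.6 CPM and 813 ± 42.5 CPM in the lungs. Col1a1 was 1687 CPM against 1669 ± 189.7 CPM.

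In contractile cells, which join smooth muscle-like and myofibroblast-like cells, 0 of 22 members were higher and 3 lower in the sort, where 1.73% and 3.78% of 4333 genes were. Col14a1 was 31.7 CPM against 80.5, 75.8 and 83.8 CPM, Col12a1 12.1 CPM against 33.4, 44 and 43.9 CPM and Col15a1 9.22 CPM against 24.8, 39.2 and 29.4 CPM. Marker sums of the pooled subclasses differed as well: the sum of 9 smooth muscle markers was 9040.1 CPM in the sort and 4514 to 5989 CPM in the lungs, and that of 9 myofibroblast markers 3292 CPM and 4007 to 4101 CPM. The 2 pooled subclasses of the lungs differed in these members: smooth muscle-like cells had Col15a1 at 3.06 ± 2.7 CPM and Col14a1 at 182 ± 18.2 CPM, against 39.8 ± 10.4 CPM and 48.4 ± 12.3 CPM in the myofibroblast-like ones. The pools were also built unalike. The smooth muscle-like cells of the lungs had Ptn, Prss35 and Heyl among their 10 leading genes. A class of the sort with the same genes among its leading genes (124 cells) was kept out of the contractile pool. The part of the pooling in these differences was not tested. In pericyte-like cells 0 of 16 stood apart in either direction (1.20% and 4.02% of 4159 genes). There Col4a1 was 675 CPM in the sort and 1159.8, 1182 and 1225 CPM in the lungs. Col12a1 was the only member named in both of the first classes. The median log2 difference of the sort from the mean of the lungs was 0.02, -0.44 and -0.40 over the members in the 3 classes, beside 0.17, 0.09 and -0.03 over all genes. When each lung was set against the other 2 by the same rule, 0 members were named in matrix fibroblast-like cells, 2 in contractile cells (Col2a1 and Col11a1 in lung 2) and 2 in pericyte-like cells (Col12a1 in lung 1 and Col18a1 in lung 3). The marker sum of alveolar type 2 cells was 50.0 CPM in matrix fibroblast-like cells of the sort and 1873 to 2361 CPM in those of the lungs; its part in the differences was not tested.

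**Figure D5:**
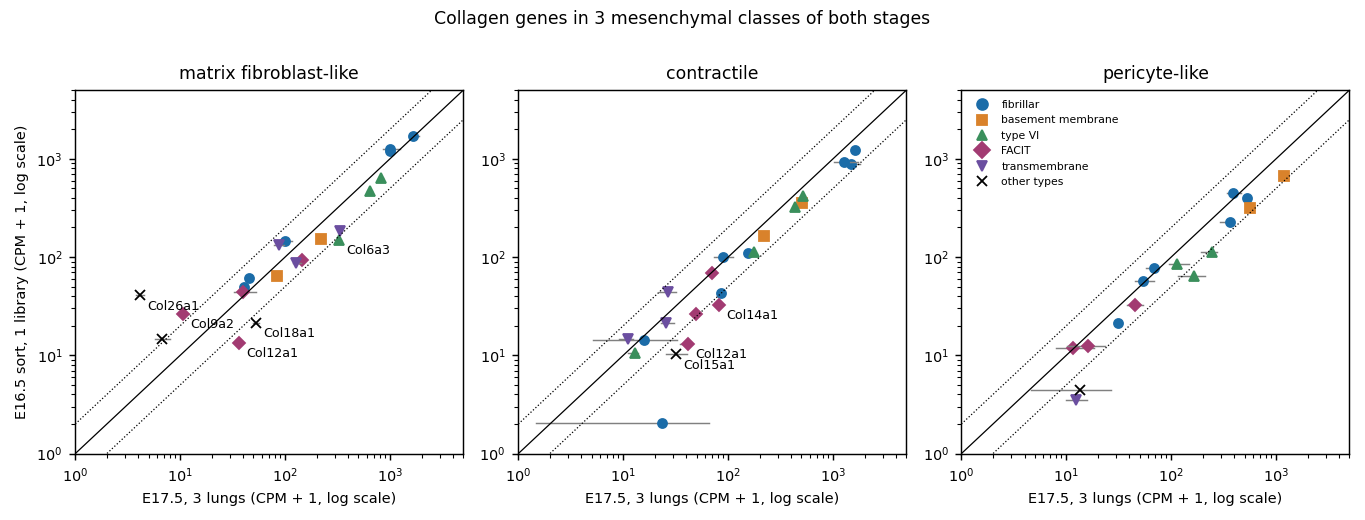
Mean CPM + 1 of each collagen gene of 10 CPM or more in the E16.5 sort (vertical axis, 1 library) against the E17.5 lungs (horizontal axis, mean of 3 lungs), both on log axes, in matrix fibroblast-like, contractile and pericyte-like cells; the marker gives the chain type, grey bars span the 3 lungs, and dotted lines mark 2-fold. Most genes lie near the diagonal, with Col26a1 above it and Col6a3, Col12a1 and Col18a1 below it in matrix fibroblast-like cells.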

How the data were processed

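The authors deposited 1 table per library of signal values, gene by cell, scaled so that every cell of a library has the same total; each value came out as a whole number of UMIs (100% of values, tolerance 0.01), and these counts were recovered. The tools named are Cell Ranger 1.3.1 and Seurat 3.0.0, per the submitters' processing notes; their roles, the genome build and the strand of counting are not given in the sources used here. All 4 files were used, and 0 columns were unmapped.

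Doublets were called per library with a simulation-based score and removed. Cells were normalized, and 2000 variable genes chosen from 10355 genes (10319 others were held out of clustering, all collagens among them) gave 30 components, 15 neighbours and Leiden clusters at resolution 1. Clusters were named from markers, and classes with fewer than 20 cells in any lung were not tested. limma 3.58.1 (R 4.3.3) with a trend was fitted to log2 of mean CPM + 10 for held-out genes of at least 10 CPM, with lung as a block. Classes of 1 lung come from 1 animal; their mean correlations after removing class means were 0.224, 0.246 and 0.41 for compartments and 0.06, 0.071 and 0.108 for mesenchymal subclasses in lungs 1, 2 and 3. The fits were tested on simulated counts. Depth per class sets the limits given beside counts of 0. The collagen genes, lists and markers were chosen with earlier results of these data known. Per-lung values are given for the members of most UMIs in a chain type and for those with the largest called difference, and up to 4 called genes of the enzyme and receptor lists. Alternatives were a pseudocount of 1 CPM, no filter, other scaling, edgeR 4.0.16 on UMI counts, summed UMIs, no block, kept doublets, fewer cells and each lung left out; leaving out the haemoglobin-led cluster, the cell cycle clusters, the cells of 10 or more Col2a1 UMIs, or a lung in the stage comparison was chosen after seeing the data. Promoter windows came from RefSeq and gene overlaps from the GENCODE annotation of GRCm38.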

Additional observations from a re-analysis of the deposited data

How the results depend on the processing

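Of 182 collagen differences called between E17.5 classes, 25 lost the call under at least 1 alternative, and 6 recomputed values reversed. The reversed values were, on the log2 scale, 0.01 for Col6a1 in epithelium, 0.48 for Col23a1 in epithelium, 0.29 for Col25a1 in endothelium and 0.40 for Col25a1 in the Agtr2 class with edgeR, and 0.25 for Col23a1 in epithelium and 0.52 for Col25a1 in endothelium with a pseudocount of 1 CPM; the cause was not tested. Without a filter 43 members were tested between compartments, and 25 were lower in endothelium, 10 higher in epithelium and 28 higher in mesenchyme. The members lower in the Agtr2 class were 2 with edgeR (4 as reported). The members higher in myofibroblast-like cells were 3 with median-of-ratios scaling and 3 with summed UMIs (5 as reported), and 3 to 4 with 1 lung left out. In the sort, pericyte-like members lower than the lungs were 1 on summed UMIs (0 as reported) and 0 to 2 with 1 lung left out. Without the lung as a replicate block 179 of 182 calls were kept and 3 were lost. Without the 2 cells of 10 or more Col2a1 UMIs 76 of the 79 collagen calls of the mesenchymal subclasses were tested again and none of the 76 was lost; the other 3, of Col11a1 and Col15a1, were not tested because the genes fell under the filter. Calls were also not tested for that reason without lung 1 (3, of Col7a1), without lung 2 (7, of Col11a1, Col15a1 and Col26a1), with summed UMIs (4 of Col4a3 and 2 of Col15a1), and with median-of-ratios scaling or without the cell cycle clusters (2 each, of Col15a1).

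With 3 lungs, and 20 to 75 cells per lung in the rarest classes tested, small differences of weakly expressed members were not detectable at this depth. Fewer cells of a state within a class and less RNA per cell cannot be told apart in a class mean. Stage cannot be told apart from sort, reporter and library.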

Other observations

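Mesothelium-like cells, which cover the lung surface, numbered 15, 1 and 16 in the 3 lungs, too few for the test. Their summed collagen level was 9927 ± 1188 CPM, and they joined fibrillar chains to epithelial type IV chains. Col1a1 measured 2308, 2219 and 4309 CPM in lungs 1, 2 and 3, Col14a1 408, 584 and 551 CPM, Col4a4 285, 934 and 313 CPM and Col4a3 161, 234 and 137 CPM. Col6a6, a type VI chain under 10 CPM in the other classes, measured 70.4, 0 and 50.4 CPM here.

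Most Col2a1 UMIs of lung 2 were in 1 cell of the smooth muscle-like class. It had 9081 UMIs and held 101 of the 126 Col2a1 UMIs of its library. Of the other cartilage collagens it held a smaller share, 31 of 124 UMIs of Col9a3, 24 of 87 of Col11a1, 10 of 54 of Col9a1 and 10 of 24 of Col11a2. It also held 8 of 10 UMIs of Lect1, 4 of 7 of Acan and 4 of 5 of Matn1, which are cartilage genes. A cell of the Agtr2 class held 10 more Col2a1 UMIs. Of the 74 Col8a1 UMIs in the lungs, 23, 15 and 11 were in 3 alveolar type 2-like cells.

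The sort held a class (104 cells) with Cxcl14, Twist2 and Ogn among its 10 leading genes, as in the Agtr2 class at E17.5; the sort and the lungs were clustered apart, and these classes were not compared. Its collagen sum was 8151 CPM, with Col26a1 at 125 CPM, Col13a1 at 279 CPM, Col6a3 at 329 CPM, Col17a1 at 13.1 CPM and Col7a1 at 12 CPM. A class led by Ptn and Prss35 (124 cells) had a sum of 7319 CPM and Col26a1 at 33.3 CPM. The 38 epithelial cells of the sort had Col18a1 at 209.6 CPM and Col9a3 at 28.4 CPM. No test was made on these values, which come from 1 library.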
